A study of Homo sapiens with 6 samples.

Results

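The genes examined here were the clustered histone genes, taken as every protein-coding row whose gene name begins with HIST1H, HIST2H, HIST3H or HIST4H. This rule used names and biotypes only and gave 71 of the 58735 rows in the deposited table, of which 19951 are protein-coding. HIST1 on chromosome 6 held 55 of them, HIST2 and HIST3 on chromosome 1 held 12 and 3, and HIST4 on chromosome 12 held 1. By class there were 6 H1, 17 H2A, 18 H2B, 15 H3 and 15 H4 genes. They were followed in MDA-MB-231, an established human line of basal-like breast cancer cells. All the cells used here carried a non-targeting shRNA (named SCR), while the sample labels give their genotype as WT. There were 3 libraries without irradiation (0 Gy), and the other 3 came from cells given 10 Gy of gamma rays and harvested 24 h later. The labels do not say whether the 3 libraries of a dose came from separate cultures, so p-values measure the spread between these libraries, which may be technical. Of the markers used to check the cell line, VIM and AXL lay between 180 and 312 FPKM in all 6 libraries, ESR1 did not exceed 0.0169 FPKM and PGR was listed at 0. FPKM are fragments per kilobase of annotated gene, scaled to sequencing depth and to a further factor for each library.

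Histones H2A, H2B, H3 and H4 form the core around which DNA is wound, and H1 binds the linker DNA between cores. Cells need new histones while DNA is copied, and most clustered genes are transcribed mainly in S phase. Their mRNAs usually end just after a short stem-loop, which is bound by SLBP, instead of in a polyA tail. Some clustered genes also make polyadenylated mRNAs that run past the stem-loop or are spliced around it. The libraries were prepared from polyadenylated RNA, so the values describe the histone reads that such a library holds and not all histone mRNA of the cell. In bulk RNA, fewer cells in S phase and less histone mRNA per cell cannot be told apart.

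The stem-loop was searched in the 100 GENCODE 29 transcripts of the 71 genes. It was found in at least 1 transcript of 32 genes. In the others no transcript held it, and many of these models stop at the stop codon. The sequences shown are those of genes whose levels are described below, written 5′ to 3′ as DNA. Capitals mark the 16 bases of the stem-loop, with the flanking bases in lower case.
HIST1H2BD: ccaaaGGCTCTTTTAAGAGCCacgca
HIST1H2BC: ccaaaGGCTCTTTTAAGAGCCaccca
HIST2H2BE: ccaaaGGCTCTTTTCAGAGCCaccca
HIST1H2AC: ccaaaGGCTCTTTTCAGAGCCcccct
HIST1H2AG: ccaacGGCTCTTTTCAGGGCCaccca
HIST1H2BL: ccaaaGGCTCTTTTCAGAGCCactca
HIST1H4B: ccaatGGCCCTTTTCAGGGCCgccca
HIST1H4H: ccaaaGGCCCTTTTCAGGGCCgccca
HIST1H4I: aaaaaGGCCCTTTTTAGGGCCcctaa
All 8 H4 genes with a stem-loop open it with GGCCC, whereas all 24 such genes of H2A, H2B and H3 open it with GGCTC. The same 16 bases are shared by HIST2H2BE, which rose after 10 Gy, by HIST1H2AC, which was not called, and by HIST1H2BL, whose level was lower in every 10 Gy library. In all, 17 of the 32 genes carry these bases. The genes differed in what the annotation places beyond the stem-loop. The longest annotated continuation past the stem-loop was 1729 bases for HIST2H2BE and 1128 bases for HIST1H2AC, against 40 bases for HIST1H2BL and 86 bases for HIST1H4B. HIST2H2BF has the same 16 bases as HIST2H2BE and a continuation of 1479 bases, yet it was lower in every 10 Gy library. HIST1H2BD and HIST1H2BC each have a transcript that ends 39 or 116 bases past the stem-loop and a spliced transcript without it.

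Promoters were read from RefSeq for 66 of the 71 genes, as 250 bases before to 50 bases after the start of transcription on GRCh38.p14. The letters CCAAT (searched on both strands) were present in 84.8% of the 66 windows against 34.6% of all 35116 promoters of the same length. TATAAA (searched on the gene's strand) was in 59.1% against 7.33%. The octamer ATTTGCAT (both strands), the letters bound by POU2F1 and its relatives, was in 39.4% against 1.77%. By class the octamer was present in 77.8% of H2B and 68.8% of H2A windows, in 1 of 13 H3 windows and in none of the H1 or H4 windows. That 1 H3 window, listed for HIST1H3D, has the same coordinates as the window of the H2A gene HIST1H2AD. CCAAT was in every H1, H2A, H2B and H3 window and in 3 of 13 H4 windows. Among the 71 genes were 11 head-to-head pairs of an H2A and an H2B gene. Where both genes of a pair have a window, the windows share 253 to 286 bases, so the 66 windows are not separate sequences. HIST2H2BE and HIST2H2AC are such a pair, whose windows share 265 bases read in opposite directions. Their promoters are shown because HIST2H2BE was called higher and HIST2H2AC lower after 10 Gy. The HIST2H2AC groups overlapped and its call was lost under 10 of 16 alternative settings, that of HIST2H2BE under 5. The promoters of HIST1H2BK and HIST1H1C, the members with the most reads, follow. Capitals mark matches of these motifs, on either strand where both were searched.
HIST2H2BE, chr1:149886633-149886932, minus strand: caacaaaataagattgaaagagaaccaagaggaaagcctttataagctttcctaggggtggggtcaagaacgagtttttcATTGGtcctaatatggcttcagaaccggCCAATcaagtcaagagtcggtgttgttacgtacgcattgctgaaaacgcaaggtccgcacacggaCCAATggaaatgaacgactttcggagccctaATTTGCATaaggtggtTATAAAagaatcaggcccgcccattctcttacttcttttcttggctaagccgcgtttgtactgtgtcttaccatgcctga
HIST2H2AC, chr1:149886668-149886967, plus strand: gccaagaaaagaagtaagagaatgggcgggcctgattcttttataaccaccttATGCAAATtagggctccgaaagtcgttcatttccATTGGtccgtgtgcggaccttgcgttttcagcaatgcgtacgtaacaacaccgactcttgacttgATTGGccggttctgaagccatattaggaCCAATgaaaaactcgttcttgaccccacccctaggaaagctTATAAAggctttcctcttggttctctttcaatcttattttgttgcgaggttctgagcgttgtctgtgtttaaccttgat
HIST1H2BK, chr6:27146809-27147108, minus strand: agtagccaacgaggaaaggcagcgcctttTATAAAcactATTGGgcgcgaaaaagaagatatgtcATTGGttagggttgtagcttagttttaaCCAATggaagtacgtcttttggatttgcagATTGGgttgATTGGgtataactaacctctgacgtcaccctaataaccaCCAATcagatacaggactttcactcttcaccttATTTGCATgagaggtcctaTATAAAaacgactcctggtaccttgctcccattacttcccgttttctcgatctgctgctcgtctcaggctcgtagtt
HIST1H1C, chr6:26056421-26056720, minus strand: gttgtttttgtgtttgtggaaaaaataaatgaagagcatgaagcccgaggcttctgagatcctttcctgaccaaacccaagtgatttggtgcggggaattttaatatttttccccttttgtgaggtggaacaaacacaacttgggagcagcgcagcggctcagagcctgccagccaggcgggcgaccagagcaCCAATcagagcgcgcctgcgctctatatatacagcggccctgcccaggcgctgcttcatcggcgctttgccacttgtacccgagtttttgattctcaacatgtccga
The HIST2H2BE window held 3 CCAAT matches and 1 octamer. The HIST2H2AC window held the same sites, read in the opposite direction, since they lie in the shared bases. The HIST1H2BK window held 6 CCAAT matches, and that of HIST1H1C held 1 and neither of the other motifs. These are matches of letters only.

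Recovered reads on all genes came to between 15643641 and 28861781 per library. The 71 histone genes took 16920 of them over the 6 libraries. These reads were unevenly spread, with 76.6% on the 5 genes with the most reads and 92.2% on the 17 genes whose mean over the 6 libraries was 1 FPKM or more. Of the 54 genes under 1 FPKM, 32 had at least 1 read and 22 were listed at 0 in every library. The 17 were 2 H1, 3 H2A, 6 H2B, 3 H3 and 3 H4 genes. The share of each library's summed FPKM on the 71 genes was 0.0769% to 0.0800% at 0 Gy and 0.0753% to 0.0789% at 10 Gy, and these ranges overlap.

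**Figure D1:**
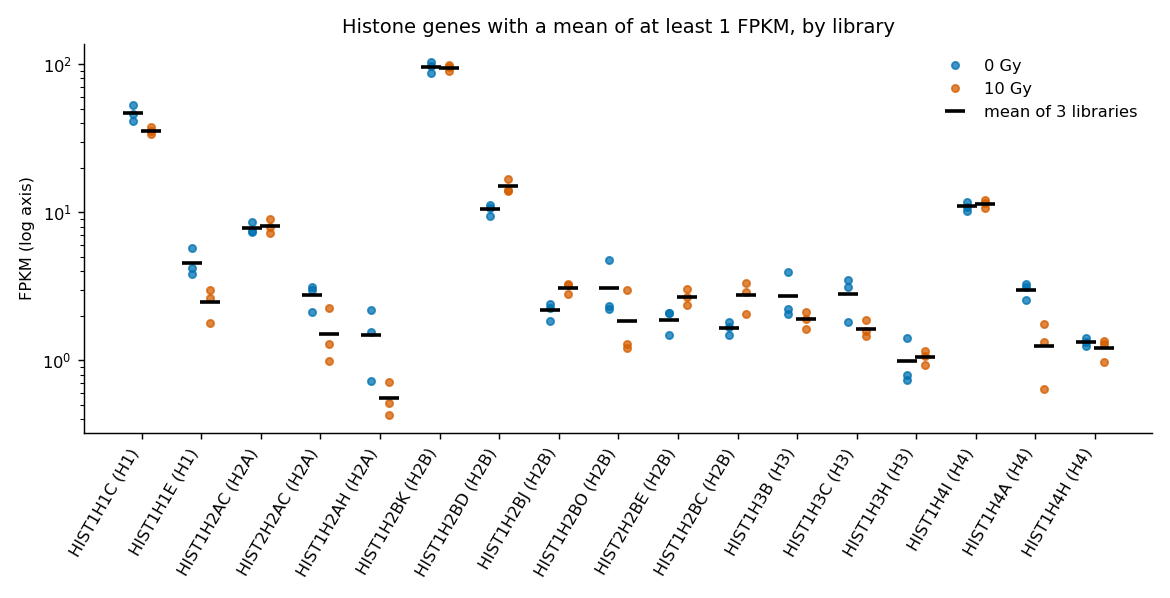
FPKM (log axis) of the 17 histone genes whose mean was 1 FPKM or more in each of the 6 libraries, with blue points for 0 Gy, orange points for 10 Gy and black lines for the mean of 3 libraries. HIST1H2BK stands at 87.4 to 104 FPKM and HIST1H1C at 33.5 to 53.0 FPKM, above the other genes.

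The 17 genes were tested for a change after 10 Gy with limma on log2(FPKM + 1), over all 12128 genes whose mean was 1 FPKM or more. At an adjusted p under 0.05, 4 of the 17 rose and 4 fell. Without 10 Gy replicate 2, 1 rose and 2 fell, without 10 Gy replicate 1, 2 fell, and without 0 Gy replicate 1 or 10 Gy replicate 3, 2 rose. Over all genes tested, 35.6% were called, 11.9% higher and 23.7% lower. The counts of 4 in each direction stand beside these shares, and their difference from them was not tested. The median log2 change was -0.08 for the 17 and -0.04 for all genes tested. Of the 17, HIST1H2AH reached a mean of 1 FPKM through its 0 Gy values alone and HIST1H3H through its 10 Gy values alone. All 4 genes that rose were H2B genes, and no H2B gene among the 17 fell. The 4 that fell were both tested H1 genes, 1 H2A and 1 H4 gene. Groups that do not overlap were seen for 8 of the 17, 4 with 10 Gy above and 4 with 10 Gy below, against 51.9% of all genes tested. HIST1H2AH was among the 4 below, and as it passed the filter through its 0 Gy values alone, its separation is no evidence of a change.

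**Figure D2:**
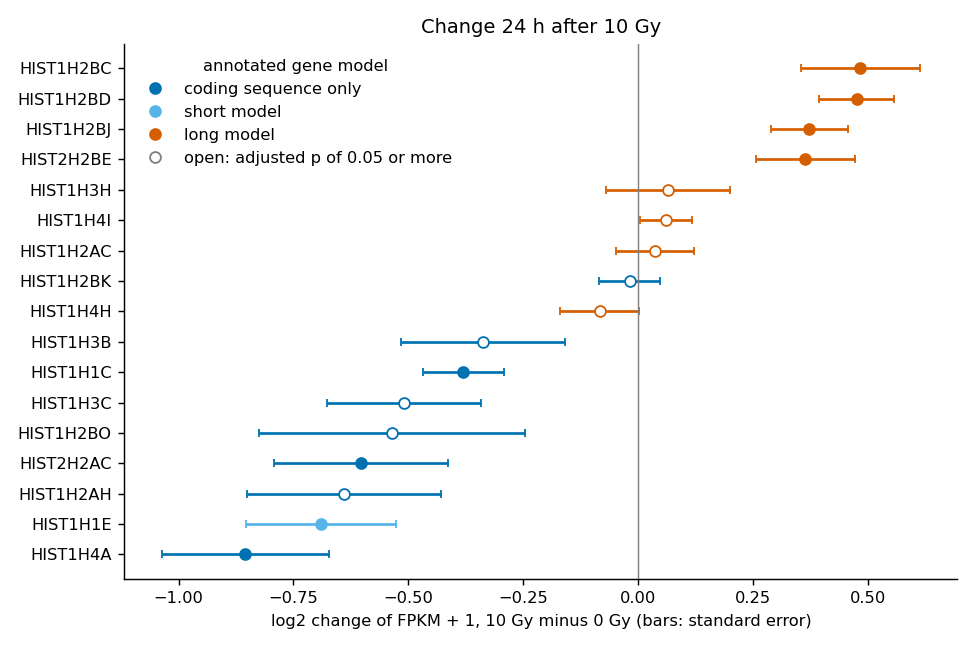
Log2 change of FPKM + 1 (10 Gy minus 0 Gy, horizontal axis) of the 17 tested genes, with bars for the standard error, colours for the kind of annotated gene model and open points for an adjusted p of 0.05 or more. The 4 genes that rose have long models, and the 4 that fell have models of the coding sequence alone or short ones. HIST1H2AH is plotted as an open point although it passed the filter through its 0 Gy values alone.

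Among H2B genes, HIST1H2BD showed the lowest adjusted p of the 17. It was at 10.6, 11.2 and 9.49 FPKM at 0 Gy and at 13.8, 14.2 and 16.7 FPKM at 10 Gy. Every library at 10 Gy was above every library at 0 Gy, and the log2 change was 0.48 ± 0.08 (SE, n = 3 per dose, limma, adjusted p = 0.0050). It was called under all 16 alternatives tried, the single histone gene of the 8 called for which this held.
HIST1H2BC stood at 1.69, 1.48 and 1.83 FPKM without irradiation and at 2.05, 3.35 and 2.88 FPKM with it. Its groups did not overlap either, with a log2 change of 0.48 ± 0.13 (SE, limma, adjusted p = 0.0258), and the 10 Gy libraries were more widely spread. That call was lost without 0 Gy replicate 1 or 2 or 10 Gy replicate 2 or 3 (adjusted p between 0.056 and 0.0747). For HIST1H2BJ the values were 2.42, 2.26 and 1.85 FPKM, then 2.82, 3.23 and 3.26 FPKM after 10 Gy. The rise of 0.37 ± 0.08 (log2 change, SE) had an adjusted p of 0.0139 (limma), and 0.053 without 10 Gy replicate 2. HIST2H2BE, a gene of the HIST2 cluster, went from 1.47, 2.08 and 2.08 FPKM to 2.36, 3.02 and 2.69 FPKM. The lowest 10 Gy library was above the highest 0 Gy library, and the log2 change was 0.36 ± 0.11 (SE, limma, adjusted p = 0.0355). The call was lost without 0 Gy replicate 1 or 10 Gy replicate 2 or 3 (adjusted p between 0.0636 and 0.115).

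HIST1H2BK had the highest level of any clustered histone gene. Its values were 104, 96.8 and 87.4 FPKM at 0 Gy and 89.6, 98.5 and 95.6 FPKM at 10 Gy, so the groups overlapped. The log2 change was -0.02, with a 95% interval from -0.17 to 0.14 (limma, adjusted p = 0.847). This interval lies below the estimates for the 4 H2B genes that rose. Its annotated model holds only the 381 bases of the coding sequence, so reads further downstream were not counted for it. HIST1H2BO, with 13 to 39 reads per library at 0 Gy and 9 to 34 at 10 Gy, was at 3.09 ± 1.41 and 1.83 ± 1.00 FPKM (SD, n = 3 each). Its log2 change of -0.54 ± 0.29 (SE) was not called (limma, adjusted p = 0.187).

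Both tested H1 genes fell. HIST1H1C, a linker histone gene that is also known to make polyadenylated mRNA, was at 53.0, 41.3 and 45.7 FPKM at 0 Gy. At 10 Gy it was at 35.2, 33.5 and 37.8 FPKM, and no library at 10 Gy reached the lowest one at 0 Gy. Its log2 change was -0.38 ± 0.09 (SE, limma, adjusted p = 0.0151). The call was lost without 10 Gy replicate 2 (adjusted p = 0.0577) and fell on the threshold without 10 Gy replicate 1 (adjusted p = 0.05). HIST1H1E stood at a lower level, with 4.23, 3.80 and 5.69 FPKM before and 2.62, 2.98 and 1.78 FPKM after irradiation. The groups were apart, and the log2 change was -0.69 ± 0.16 (SE, limma, adjusted p = 0.0161). The other 4 H1 genes had 3 reads in all. HIST1H1A had 1 read, the testis gene HIST1H1T had 2, and HIST1H1B and HIST1H1D were listed at 0.

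Of the H2A genes, HIST1H2AC had the highest level and differed little between doses. It was at 8.60, 7.49 and 7.31 FPKM at 0 Gy and at 7.20, 7.92 and 8.999 FPKM at 10 Gy, with overlapping groups. The log2 change was 0.04, with a 95% interval from -0.16 to 0.24 (limma, adjusted p = 0.759). HIST2H2AC was called as lower at -0.60 ± 0.19 (log2 change, SE, limma, adjusted p = 0.0434), although its groups overlapped. Its values were 3.13, 3.00 and 2.13 FPKM without irradiation and 1.29, 0.983 and 2.25 FPKM with it. These rest on 18 to 26 reads per library at 0 Gy and 7 to 19 at 10 Gy, and the call was lost under 10 of the 16 alternatives. Among these were the fits without 0 Gy replicate 1 or 2 or 10 Gy replicate 1 or 2 (adjusted p between 0.106 and 0.125). HIST1H2AH, the partner of HIST1H2BK, was at 1.49 ± 0.73 and 0.553 ± 0.149 FPKM (SD, n = 3 each), from 32 and 15 reads in all. Its groups did not overlap. It reached a mean of 1 FPKM through its 0 Gy values alone, so no test is given for it.

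No H3 gene was called. HIST1H3B was at 2.05, 2.22 and 3.93 FPKM at 0 Gy and at 1.63, 2.13 and 1.91 FPKM at 10 Gy. HIST1H3C was at 1.83, 3.48 and 3.15 FPKM and then at 1.87, 1.47 and 1.57 FPKM. In each gene 1 library of a dose reached into the range of the other dose. Their log2 changes were -0.34 (limma, adjusted p = 0.177) and -0.51 (limma, adjusted p = 0.0506). Without 0 Gy replicate 1, HIST1H3C was called (adjusted p = 0.00303). HIST1H3H, whose model is long, was at 0.984 ± 0.378 and 1.05 ± 0.11 FPKM (SD, n = 3 each) with a log2 change of 0.06.

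The H4 genes differed among themselves. They encode the same protein apart from HIST1H4G, which was listed at 0. HIST1H4I was at 10.3, 10.9 and 11.7 FPKM at 0 Gy and at 11.5, 10.8 and 11.99 FPKM at 10 Gy, with overlapping groups. Its log2 change of 0.06 had a 95% interval from -0.07 to 0.19 (limma, adjusted p = 0.443). HIST1H4A fell from 2.55, 3.13 and 3.26 FPKM to 0.643, 1.76 and 1.33 FPKM. The groups did not overlap, and the log2 change was -0.85 ± 0.18 (SE, limma, adjusted p = 0.0109). The reads behind it were few, 54 at 0 Gy and 25 at 10 Gy. HIST1H4H was at 1.33 ± 0.08 and 1.20 ± 0.20 FPKM (SD, n = 3 each) and was not called (log2 change -0.08, limma, adjusted p = 0.476).

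Fold changes depend on the scale of the values. When the FPKM of each library were rescaled to the same total (TPM), the median log2 change of all genes tested rose by 0.12, from -0.04 to 0.08. The calls among all genes then turned from 1443 higher and 2874 lower to 3113 higher and 1066 lower. Set against the median of all genes, the 4 genes that rose were 0.40 to 0.52 above it on FPKM and 0.51 to 0.66 above it on TPM. The 4 that fell lay between -0.34 and -0.82 on FPKM and between -0.34 and -1.14 on TPM. All 4 genes that rose and 3 of the 4 that fell were called on TPM too, and HIST2H2AC was not (log2 change -0.71, adjusted p = 0.0641).

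The genes that rose and those that fell are also described by their annotated models, a grouping made after the values were seen and given without a test. Of the 71 models, 33 hold the coding sequence alone. Another 26 are long, with a spliced transcript or more than 100 bases past the stem-loop, and 12 are short extensions. Of the 8 long models tested, 4 rose and none fell. Of the 9 tested models without such a continuation, none rose and 4 fell. Over all genes tested, 11.9% rose and 23.7% fell. Over all 26 long models, the reads per 1000000 recovered reads (RPM) were 52.2, 54.1 and 55.5 at 0 Gy and 60.5, 65.1 and 71.3 at 10 Gy. Over the other 45 they were 83.3, 75.4 and 78.2 and then 67.0, 68.9 and 69.5. The sums thus moved in opposite directions, and within each kind the groups did not overlap. RPM do not hold the further library factor of FPKM, which lowers FPKM at 10 Gy against 0 Gy. Without HIST1H2BK and HIST1H1C, the other 43 went from 11.7, 13.0 and 16.2 to 8.28, 7.51 and 7.12 RPM. Among long models the H2B genes carried the rise, with a ratio of 1.45 against 1.08 for long models of other classes. Gene model and class therefore overlap, as all 4 genes that rose are H2B genes with long models.

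**Figure D3:**
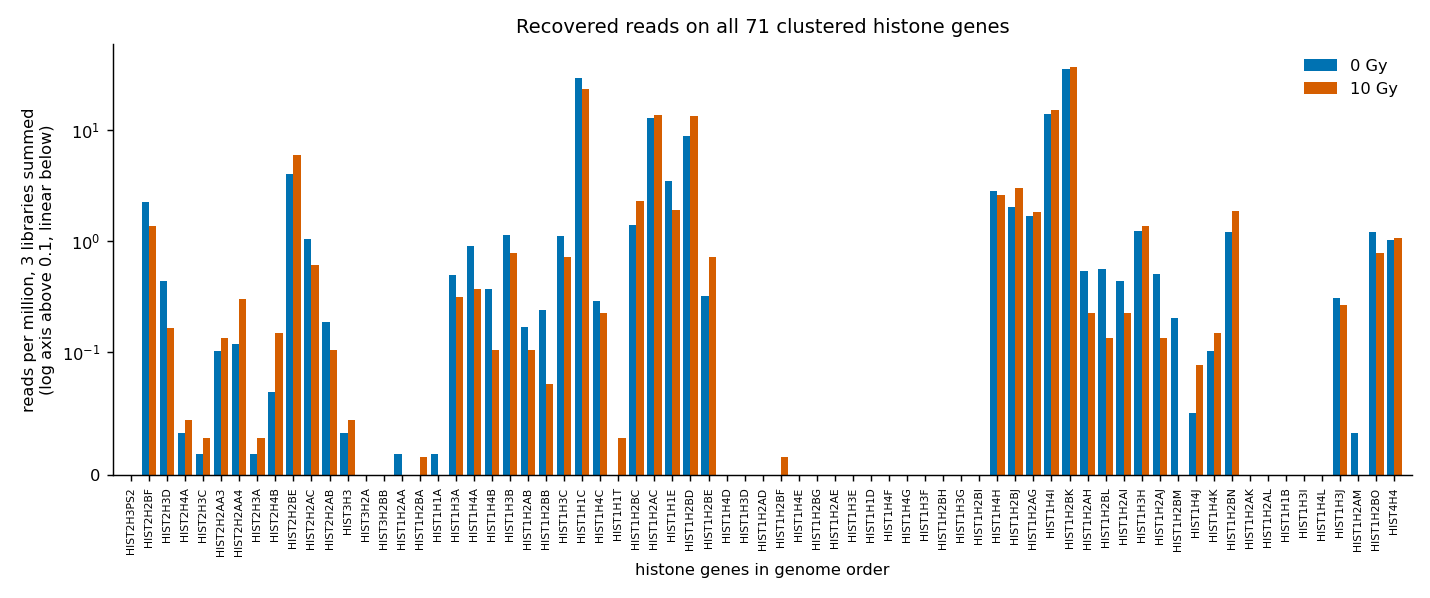
Reads per 1000000 recovered reads (log axis above 0.1, linear below) on each of the 71 genes in genome order, with the reads of 3 libraries of a dose summed, in blue for 0 Gy and orange for 10 Gy. A run of 15 genes from HIST1H4D to HIST1H2BI holds 1 read in all.

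Genes under 1 FPKM were too low for the main comparison and are described by their reads. A fit with a filter of 0.1 FPKM and a pseudocount of 0.1 took in 38 of the 71 genes, 21 of them new. It called 3 histone genes higher against 7.23% of all genes in that fit, and 5 lower against 11.9%. HIST2H3D, with 26 reads at 0 Gy and 11 at 10 Gy, was called there (log2 change -1.22 ± 0.21, SE, limma, adjusted p = 0.0103). HIST1H2BM, also among the 5, had 12 reads at 0 Gy and 0 at 10 Gy. It passed the filter through its 0 Gy values alone, so its call is no evidence of a change. Its 0 Gy level in RPM was 4.54 times a floor of 3 reads over the 3 libraries at 10 Gy. This ratio allows for counting error at 10 Gy only and not for that of the 12 reads at 0 Gy. HIST1H2BL had 33 and 9 reads, HIST1H2AJ 30 and 9, HIST1H4B 22 and 7, and HIST1H2AI 26 and 15. In these 4 genes every 10 Gy library was below every 0 Gy library, and none was called. HIST2H2BF, a long model, had 133 reads at 0 Gy and 93 at 10 Gy with groups apart and lower at 10 Gy. HIST1H2BE, a long H2B model that shares 23.9% of its 150-base windows with a transcript of AL353759.1, had 19 and 48 reads. Over the 54 genes together, values were 9.94, 11.1 and 12.6 at 0 Gy and 9.18, 8.82 and 11.2 RPM at 10 Gy, which overlap.

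Reads of near-identical copies could be split or lost. Of the 71 genes, 19 share more than 10% of their 150-base windows with transcripts of another gene. HIST2H2AA3 and HIST2H2AA4 share 100% and 96.4%, HIST1H4K and HIST1H4J 100% and 72.8%, and HIST1H2AJ shares 76.9% with HIST1H2AI. None of the 17 tested genes passed 10%. How the authors treated reads with several matches is not stated, so values of the 19 are uncertain. The library's strand setting is not stated either. HIST1H2AK lies within HIST1H2BN on the opposite strand, and HIST1H2AM overlaps HIST1H3J on the same strand.

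Reads were also uneven along chromosome 6. From HIST1H4D to HIST1H2BI (chr6:26188765-26273356, 84592 bases, GRCh38), 15 neighbouring genes of all 5 classes held 1 read in all 6 libraries. The 6 other rows inside that stretch held 2 reads. The genes on either side were read, HIST1H2BE with 67 reads and HIST1H4H with 345. A count of 0 over the 3 libraries of a dose allows up to 3 reads. A second run, HIST1H2AK to HIST1H4L (chr6:27837947-27873510), held 0 reads on 5 genes, although HIST1H2BN, which spans part of it, had 197. No difference between doses was detectable in these stretches at this depth.

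Genes of a head-to-head pair had unlike changes in several cases. HIST2H2BE rose to 1.43 times its 0 Gy level while HIST2H2AC, 322 bases away, was at 0.547 times. The ratio of mean FPKM (10 Gy over 0 Gy) was 1.66 for HIST1H2BC and 1.03 for HIST1H2AC, 218 bases apart. It was 1.43 for HIST1H2BJ and 0.987 for HIST1H2AG. HIST1H2BK was at 0.985 times and HIST1H2AH at 0.372 times. In the pair of HIST1H2BL and HIST1H2AI both were lower, at 0.230 and 0.491 times. HIST1H2AJ was at 0.287 times, and its partner HIST1H2BM had no reads at 10 Gy. The difference within a pair was not tested. In the first 3 of these pairs the H2B gene has a long model. Their partners HIST1H2AC and HIST1H2AG have long models too, while that of HIST2H2AC holds the coding sequence alone.

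**Figure D4:**
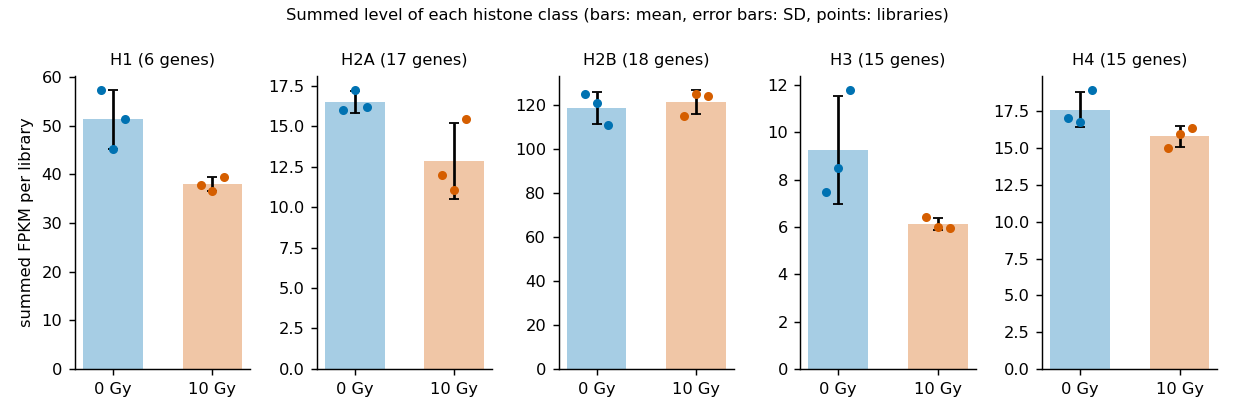
Summed FPKM per library of each histone class at 0 Gy (blue) and 10 Gy (orange), with bars for the mean, error bars for the SD and points for the 3 libraries. H1 and H3 sit lower at 10 Gy in every library, and H2B overlaps.

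Class sums are given without a test. H1 was at 57.3, 45.1 and 51.4 FPKM at 0 Gy and at 37.8, 36.6 and 39.5 FPKM at 10 Gy. H3 was at 7.46, 8.49 and 11.8 FPKM and then at 6.40, 6.01 and 5.94 FPKM. In both classes the groups were apart. H2A went from 16.0, 17.2 and 16.2 to 11.97, 11.03 and 15.5 FPKM, and H4 from 17.0, 16.8 and 19.0 to 15.03, 16.0 and 16.4 FPKM. These were also apart, by a narrower margin. The H2B sum was 125, 121 and 111 FPKM at 0 Gy and 115, 125 and 124 FPKM at 10 Gy, and overlapped. HIST1H2BK made up most of it. Without the most abundant member of each class, the log2 ratio of the FPKM sums was -0.88 for H1, -0.86 for H2A, 0.24 for H2B and -0.61 for H4. In RPM over all members, the H4 ratio turned to 0.05 and the H2A ratio was -0.02. Long models weigh more in RPM, and RPM do not hold the further library factor of FPKM.

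The 6 clustered genes listed as known to make polyadenylated mRNA were HIST1H1C, HIST1H2AC, HIST1H2BC, HIST1H2BD, HIST1H2BK and HIST2H2BE. Of them 3 rose, 1 fell and 2 were not called, with a median log2 change of 0.20, where 11.9% of all genes tested rose and 23.7% fell. Without 10 Gy replicate 2, 1 rose and none fell, without 10 Gy replicate 1, 3 rose and none fell, and without 0 Gy replicate 1 or 10 Gy replicate 3, 1 rose and 1 fell. Histone genes outside the clusters, whose mRNAs are mostly polyadenylated and mostly made throughout the cell cycle, are given beside them. Of 22 listed, 10 were tested, 6 fell and none rose, where 23.7% of all genes tested fell and 11.9% rose. On TPM 5 of them fell and 2 rose, where 1066 of all genes tested fell and 3113 rose. H1F0, a linker histone known from differentiated cells, fell from 115 ± 5.3 to 69.7 ± 1.4 FPKM (SD, n = 3 each, log2 change -0.71). H1FX fell by 0.55 and H2AFX, whose protein is phosphorylated at DNA breaks, fell by 0.47 on the log2 scale, from 218 ± 11.8 to 156 ± 0.4 FPKM (SD). H3F3B fell by 0.29. H2AFZ fell by 0.15, a call lost under 6 of the 16 alternatives, among them TPM (log2 change -0.02) and the fits without each 10 Gy replicate (adjusted p between 0.0545 and 0.0895, limma). H3F3A (log2 change -0.12) was not called and was at 0.01 on TPM, and CENPA, the histone of centromeres, was not called at 0.06 and was called higher on TPM at 0.19.

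**Figure D5:**
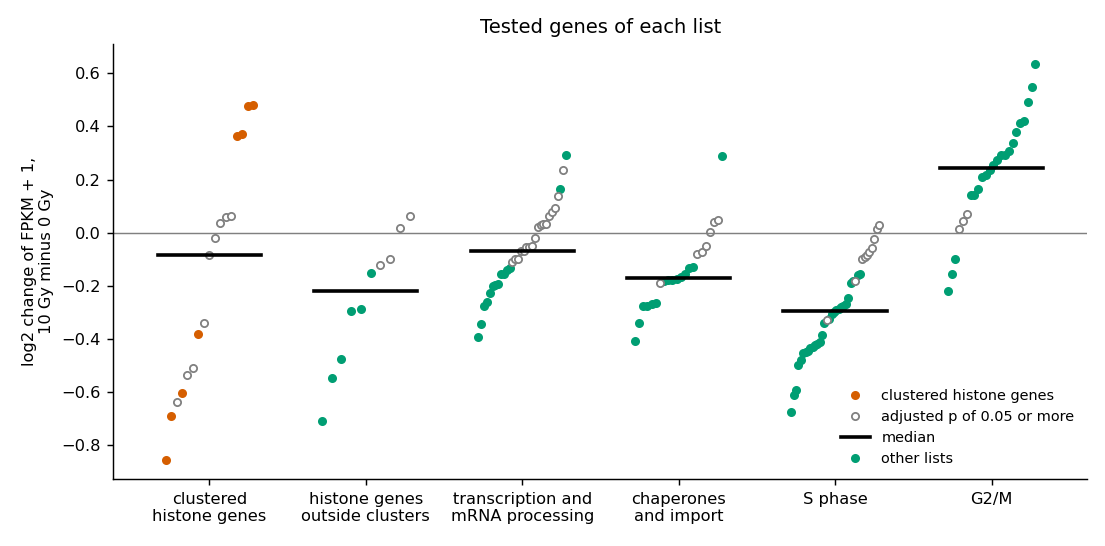
Log2 change of FPKM + 1 (10 Gy minus 0 Gy) of the tested genes of 6 lists, with filled points for an adjusted p under 0.05 and lines for the median. The medians are -0.08 for the clustered histone genes, -0.30 for S phase and 0.24 for G2/M.

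Of 34 listed genes that transcribe histone genes and process their mRNA, 32 were tested, 2 rose and 12 fell, with a median log2 change of -0.07. SLBP, which binds the stem-loop, was at 85.3 ± 5.3 and 79.5 ± 2.2 FPKM (SD, n = 3 each), with a log2 change of -0.10 that was not called and was 0.03 on TPM. NPAT, the activator of histone transcription, had a log2 change of -0.07, also not called, and 0.04 on TPM. MIF4GD, which acts with SLBP in translation, fell by 0.39 and LSM10, of the U7 particle that cuts histone pre-mRNA, fell by 0.34. XRN1, an exonuclease that degrades mRNA, was 0.29 higher on the log2 scale. On TPM this list gave 8 higher and 4 lower, so its balance of calls rests on the scale. Over all 12128 genes tested, 1443 rose and 2874 fell on FPKM, and 3113 rose and 1066 fell on TPM. Among 23 histone chaperones and import factors, 22 were tested, 14 fell and 1 rose (ATRX, log2 change 0.29), with a median of -0.17, and on TPM 5 fell and 3 rose. DNAJC9 fell by 0.41. Of the chromatin assembly factors, CHAF1A fell by 0.27 and ASF1A by 0.26, while CHAF1B (log2 change -0.19) and ASF1B (-0.05, and 0.08 on TPM) were not called. CHAF1A and ASF1A were added after their values were seen.

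Genes of the cell cycle are given beside these because clustered histone genes are read in S phase. Over all 12128 genes tested, 11.9% rose and 23.7% fell on FPKM, and 3113 rose and 1066 fell on TPM. All 38 listed S phase genes were tested, 28 fell and none rose, with a median log2 change of -0.30, and on TPM 24 fell and 2 rose. PCNA, the sliding clamp of replication, went from 170 ± 8.7 to 121 ± 3.7 FPKM (SD, n = 3 each). CCNE2 fell by 0.50 and RRM2 by 0.67 on the log2 scale. Of 25 listed G2/M genes, 24 were tested, 18 rose and 3 fell, with a median of 0.24, and on TPM 20 rose and 1 fell. KIF20A was 0.64 higher and CDK1 0.14 higher on the log2 scale, and MKI67 had a log2 change of 0.02 and was not called. The part of these shifts in the histone values was not tested.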

How the data were processed

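Libraries were grouped by the dose in the sample titles, 3 at 0 Gy and 3 at 10 Gy. The FPKM values deposited by the authors came from a sequencing company, which prepared polyA libraries and read them in pairs. The submitters' processing notes name HISAT2 and GRCh38. The counting program, its strand setting and its treatment of reads with several matches are not given in the sources used here. Coordinates of 58690 of 58735 rows match GENCODE 29. An FPKM times gene length and implied depth gave whole reads for 100% of values (within 0.05 of a whole number). These reads were used for depth, for RPM and for low genes. Beyond depth, the FPKM of each library were divided by a scaling factor. It was 0.9725, 0.9825 and 0.991 at 0 Gy and 1.0361, 1.0389 and 1.0278 at 10 Gy. The factor thus lowers FPKM at 10 Gy against 0 Gy, and RPM do not hold it.

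Doses were compared with limma 3.58.1 in R 4.3.3 (eBayes with trend) on log2(FPKM + 1), a scale that understates the change of low genes, over 12128 genes whose mean was 1 FPKM or more. Tests were two-sided with Benjamini-Hochberg adjustment, and genes under 0.05 were called. Gene models and stem-loops came from GENCODE 29, and promoters from RefSeq through current gene symbols. Shared windows were 150-base stretches found in transcripts of another gene. The members, gene lists and tests were chosen with earlier results of these data known, and the grouping by gene model after the values were seen. Values per library are given for called members and the 2 of highest mean FPKM in each class. Other lists are given by counts, by 15 genes chosen from general knowledge and by up to 3 called genes with the largest change. The pseudocount, the filter, the scaling (upper quartile, median of ratios, TPM), a replicate block, leaving out single replicates, the eBayes settings and a restriction to protein-coding genes were varied. Libraries of other cells in the study were not analysed here. Python 3.11.15 with matplotlib 3.10.9 drew the figures.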

Additional observations from a re-analysis of the deposited data

How the results depend on the processing

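The counts of called histone genes rest on few genes near the threshold. Without the filter on low genes, 1 clustered histone gene was higher and 2 were lower, with 0 called in H1, H2A and H4, 2 in H2B and 1 in H3, and 1 of the 6 polyadenylated genes. Only 1 of these calls, the rise of HIST1H2BD, was shared with the main comparison. The 2 lower ones were an H2B and an H3 gene not tested there. Over all 31650 genes in that fit, 1097 were higher and 1815 lower. H2A had 0 called members under the filter of 0.1 FPKM, TPM, the replicate block and both eBayes settings, against 1. It had 2 with a pseudocount of 0.1, upper quartile scaling or protein-coding genes alone. HIST1H2AH, which reached a mean of 1 FPKM through its 0 Gy values alone, was among the 2. H3 had 1 called member under those 3 settings and under the filter of 0.1 FPKM, against 0. Chaperones gave 8 calls on TPM, against 15.

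Leaving out each library in turn gave 2660 to 3993 called genes in all, 1 to 4 clustered histone genes higher and 2 to 5 lower. Called members were 1 to 2 for H1, 0 to 1 for H2A, 1 to 4 for H2B, 0 to 1 for H3 and 1 for H4, and 1 to 4 of the 6 polyadenylated genes. The list of transcription and processing gave 8 to 13 calls. Without 10 Gy replicate 2, 1 histone gene rose and 2 fell, without 10 Gy replicate 1, 2 fell, and without 0 Gy replicate 1 or 10 Gy replicate 3, 2 rose.

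Same-numbered libraries did not deviate together (correlations -0.040, -0.035 and -0.101). With 3 libraries per dose, this cannot exclude a pairing by replicate number. With the replicate block, 3503 genes were called, 4 histone genes higher and 3 lower, and 9 genes of transcription and processing, against 14.

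Uncalled log2 changes near 0 changed sign. On TPM, HIST1H2BK was at 0.109, SLBP at 0.029, NPAT at 0.045, H3F3A at 0.0055 and ASF1B at 0.076. Leaving out each library gave -0.084 to 0.039 for HIST1H2BK, -0.039 to 0.105 for HIST1H2AC, -0.023 to 0.216 for HIST1H3H and -0.086 to 0.066 for MKI67. The log2 ratio of class sums was -0.304 for H1, 0.161 for H2B and -0.029 for H4 on TPM. In RPM it was -0.020 for H2A, 0.209 for H2B and 0.050 for H4. In FPKM without the most abundant member it was -0.880, -0.858, 0.236 and -0.610 for H1, H2A, H2B and H4. The cause of these shifts was not tested. Low counts limit the precision of members with few reads.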

Other observations

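Besides the 71 genes, 19 histone rows of the same clusters are annotated as pseudogenes. HIST2H3DP1, next to HIST2H2BA on chromosome 1, was at 5.30, 5.32 and 6.44 FPKM at 0 Gy and at 6.11, 6.72 and 3.77 FPKM at 10 Gy, with overlapping groups. In each of the 6 libraries it was above every protein-coding clustered H3 gene. HIST2H2BA was at 2.17, 3.96 and 3.42 FPKM and then at 4.07, 3.26 and 3.60 FPKM, also overlapping. HIST2H2BC held 520 reads over the 6 libraries, at 0.481 to 0.606 FPKM without irradiation and 0.706 to 0.722 FPKM with it.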
